A study of Mus musculus with 12 samples.

Results

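H3K9me2 and H3K9me3 are di- and tri-methylation of lysine 9 of histone H3. Both are marks of repressed chromatin. H3K9me3 is best known from constitutive heterochromatin and from transposable elements, and H3K9me2 from silenced genes and broad domains of inactive chromatin. In brown fat (brown adipose tissue, BAT), a tissue that oxidizes lipid to produce heat, enzymes that write or remove methyl groups at this residue take part in adipocyte identity and thermogenic gene expression. The regions described here are places in BAT where both marks were called on a standard chow diet (SCD) and neither was called on a high-fat diet (HFD).

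The regions were chosen by the peak lists themselves. The peaks of the 4 BAT lists on the 19 autosomes were merged wherever they shared at least 1 bp, and a merged region was retained if it held an SCD peak of each mark and no HFD peak of either mark. This left 798 regions of 74877 merged BAT regions, or 4.79% of the 16646 regions with both marks in SCD. The other 15848 both-mark SCD regions kept 1 or both marks in HFD and served as the comparison. Since the lists that chose the regions are the same lists that count them, this share is a description of the lists and not a test.

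The libraries came from wild-type C57BL/6J mice that received SCD or HFD from 6 weeks of age for 12 weeks, after which BAT and subcutaneous white adipose tissue (WAT) were taken. Chromatin was immunoprecipitated for H3K9me2 or H3K9me3, so each of the 8 lists stands for 1 diet, 1 tissue and 1 mark with 1 library, and another 4 libraries were inputs. No replicate spread can be given, the animals behind a library are not stated, and every interval below is an exact binomial (Clopper-Pearson) 95% interval that covers counting error only. A missing peak may reflect fewer marked cells, less mark per cell or a shallower library, and these cannot be told apart in whole tissue with 1 library. The marks carry the names of the labels, while the study's methods pair the H3K9me2 name with an antibody described against tri-methyl K9 and the H3K9me3 name with an antibody described against di-methyl K9. Peaks of repressive marks show no expression, so the tissue labels were not checked against marker genes.

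The HFD lists of BAT were longer than the SCD lists. On the autosomes there were 42401 H3K9me2 peaks and 50303 H3K9me3 peaks in HFD, against 23626 and 25126 in SCD, and read depth is not known from the lists. Of the SCD H3K9me2 regions 34.1% held no HFD H3K9me2 peak, and of the SCD H3K9me3 regions 15.9% held no HFD H3K9me3 peak. Among the both-mark SCD regions these shares were 28.6% for H3K9me2 and 6.46% for H3K9me3. The opposite pattern, both marks in HFD and neither in SCD, was found at 6139 regions, or 27.7% of the both-mark HFD regions. The absence of H3K9me3 was thus the rarer event, and of the 1075 both-mark SCD regions without HFD H3K9me3, 74.2% (71.5 to 76.8) also lacked HFD H3K9me2. Where HFD H3K9me3 was present, 25.4% (24.8 to 26.1) lacked HFD H3K9me2.

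The sequences of 8 of the strongest members are printed to show what they are made of. Members were ranked by the lower of their SCD scores, the score being the deposited strength of a peak. It was taken as −log10 p multiplied by 10. The 5 highest promoter members are given together with the 3 highest members between genes, the latter picked after their values were seen. Each run is up to 300 bases around the middle of the overlap of the SCD peaks, on the plus strand of the mm9 reference, cut short where an annotated untranslated region began. Capitals mark CG dinucleotides, the sites of DNA methylation in mammals.
Lce1e promoter, chr3:92511551-92511850: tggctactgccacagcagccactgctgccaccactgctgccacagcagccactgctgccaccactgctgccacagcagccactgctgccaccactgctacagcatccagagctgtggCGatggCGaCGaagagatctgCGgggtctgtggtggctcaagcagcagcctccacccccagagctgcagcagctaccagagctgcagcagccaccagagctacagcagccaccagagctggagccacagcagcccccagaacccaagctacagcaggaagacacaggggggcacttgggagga
Slc24a3 promoter, chr2:145068013-145068312: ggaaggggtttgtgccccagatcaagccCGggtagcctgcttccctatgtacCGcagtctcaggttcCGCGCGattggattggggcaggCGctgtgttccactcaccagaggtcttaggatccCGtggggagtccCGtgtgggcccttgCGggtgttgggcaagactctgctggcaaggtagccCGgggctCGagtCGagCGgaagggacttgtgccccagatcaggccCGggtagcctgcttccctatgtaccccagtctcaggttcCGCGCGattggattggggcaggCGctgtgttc
Kctd6 promoter, chr14:9046857-9046920: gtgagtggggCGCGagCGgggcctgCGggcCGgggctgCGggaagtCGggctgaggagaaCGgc
Rap1a promoter, chr3:105603851-105604150: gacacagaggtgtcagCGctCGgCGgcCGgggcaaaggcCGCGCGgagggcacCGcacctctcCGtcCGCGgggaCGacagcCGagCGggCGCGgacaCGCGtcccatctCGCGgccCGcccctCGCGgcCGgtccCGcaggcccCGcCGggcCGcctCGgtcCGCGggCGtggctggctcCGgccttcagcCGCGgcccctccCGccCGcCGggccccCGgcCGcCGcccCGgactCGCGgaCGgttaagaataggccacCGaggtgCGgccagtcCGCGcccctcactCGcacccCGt
Adipor2 promoter, chr6:119338394-119338499: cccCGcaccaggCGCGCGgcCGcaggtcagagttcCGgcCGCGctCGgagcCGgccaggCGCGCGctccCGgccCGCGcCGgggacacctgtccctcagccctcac
Intergenic, nearest gene Iqcj, chr3:67557105-67557404: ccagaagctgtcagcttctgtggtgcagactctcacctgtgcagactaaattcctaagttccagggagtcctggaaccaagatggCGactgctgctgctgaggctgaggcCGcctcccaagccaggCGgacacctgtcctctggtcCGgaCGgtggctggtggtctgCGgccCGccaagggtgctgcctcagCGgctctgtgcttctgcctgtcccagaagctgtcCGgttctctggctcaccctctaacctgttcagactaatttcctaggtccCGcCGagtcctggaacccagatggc
Intergenic, nearest gene Rims1, chr1:22929001-22929300: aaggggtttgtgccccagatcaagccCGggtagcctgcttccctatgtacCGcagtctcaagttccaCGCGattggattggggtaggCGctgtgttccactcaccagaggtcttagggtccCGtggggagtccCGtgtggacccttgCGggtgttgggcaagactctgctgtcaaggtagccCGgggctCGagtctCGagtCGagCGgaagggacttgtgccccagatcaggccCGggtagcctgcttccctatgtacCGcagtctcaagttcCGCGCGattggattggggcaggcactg
Intergenic, nearest gene Apba2, chr7:71628407-71628706: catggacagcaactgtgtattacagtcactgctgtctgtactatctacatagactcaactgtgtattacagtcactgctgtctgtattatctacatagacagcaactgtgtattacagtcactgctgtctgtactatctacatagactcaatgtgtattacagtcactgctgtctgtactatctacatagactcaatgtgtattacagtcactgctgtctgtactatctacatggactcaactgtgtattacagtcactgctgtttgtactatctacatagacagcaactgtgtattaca

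The Rap1a run held 51 CG dinucleotides in 300 bases, as CpG island promoters do, and the shorter Kctd6 and Adipor2 runs held 8 in 64 and 17 in 106 bases. The Slc24a3 and Rims1 runs lie on different chromosomes but carry stretches of the same sequence, and 40.7% of the 20-base words of the Slc24a3 region occurred in the Rims1 region. The median 20-base word of their windows occurred 3664 and 3842 times in the reference. The Apba2 run is made of a short unit that recurs with small changes, holds 0 CG dinucleotides, and has a median word with 134 copies in the reference. The Lce1e run lies over the exon of that gene and holds 4.

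Members carried weaker SCD peaks than the regions that kept a mark. Their H3K9me2 score had a median of 67.0 and ran from 50, the lowest score listed, to 216, against a median of 108 in kept regions. Their H3K9me3 score had a median of 75.7 and reached 545, against a median of 230. The lower of both scores had a median of 60.4 in members and 103 in kept regions. When the both-mark SCD regions were split by that lower score into 5 classes of about equal size, the members numbered 471, 211, 89, 25 and 2 from the weakest to the strongest class, or 14.2%, 6.37%, 2.66%, 0.751% and 0.0601% of the regions in each. Most members thus lay near the lowest scores of the lists, while 116 had a lower score of 85.5 or more. The score belongs to the contrast that chose them.

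**Figure D1:**
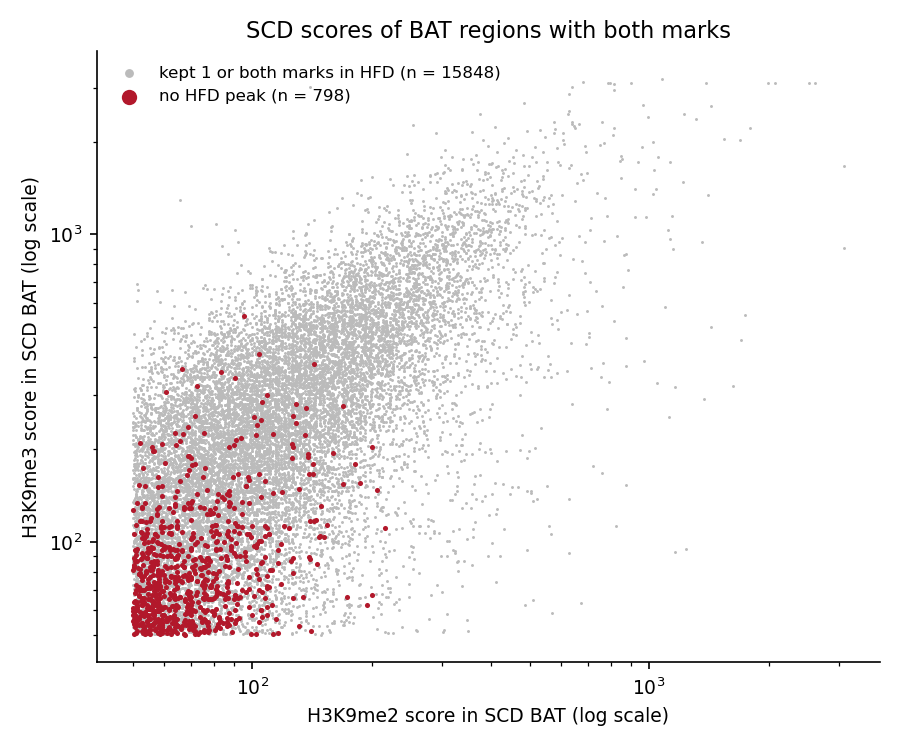
SCD scores of the 16646 both-mark BAT regions, with the H3K9me2 score on the horizontal axis and the H3K9me3 score on the vertical axis, both log scales. Each point is a region, red for the 798 members and grey for the 15848 regions that kept 1 or both marks. The members lie in the lower left corner, with median scores of 67.0 and 75.7.

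The nearest HFD peak of either mark lay 44 to 164205 bp from a member, with a median of 9204 bp. There were 113 members (14.2%) with an HFD peak within 1000 bp and 418 (52.4%) with an HFD peak within 10000 bp. The member closest to an HFD peak, chr1:63373124-63373818, was 44 bp from it and had scores of 51.8 for H3K9me2 and 71.4 for H3K9me3. The kept region nearest to the edge of the rule, chr6:35673772-35675654, shared 13 bp with an HFD peak and had SCD scores of 108 and 50.8.

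The number of members depended on how the lists were cut. With the HFD lists cut to as many top-scoring peaks as the SCD list of the same mark, 2399 regions had no HFD peak, or 14.4% of the both-mark SCD regions. With a score of at least 80 required in all 4 BAT lists there were 490, or 4.55%, a like share of fewer regions. With the upper 50% of each SCD list there were 48, or 0.554%.

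Most members lay away from promoters. A promoter was within 3 kb of a start site of a protein-coding gene in the GENCODE vM1 annotation, and 127 of 798 members (15.9%, 13.4 to 18.6) were at one, while 8361 of 15848 kept regions were (52.8%, 52.0 to 53.5). Between genes lay 494 members (61.9%, 58.4 to 65.3) and 31.8% of kept regions (31.0 to 32.5). Introns held 129 members (16.2%) and 9.59% of kept regions. Exons held 48 members (6.02%, 4.47 to 7.90) and 5.89% of kept regions, which lies within the interval. A start site was covered by 85 members (10.7%, 8.60 to 13.0) and by 46.8% of kept regions.

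This pattern was shared by regions that kept H3K9me2 but not H3K9me3 in HFD. Of those 277 regions, 19.1% (14.7 to 24.3) were at a promoter and 56.0% (49.9 to 61.9) between genes. Of the 3961 regions that kept H3K9me3 but not H3K9me2, 63.6% were at a promoter and 27.0% between genes. SCD regions with a single mark and no HFD peak also lay largely between genes, with 12.2% at a promoter among 2845 H3K9me2 regions and 16.0% among 2548 H3K9me3 regions. The regions with both marks in HFD alone differed in their exon share, which was 22.9%, and 31.9% of them were at a promoter.

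**Figure D2:**
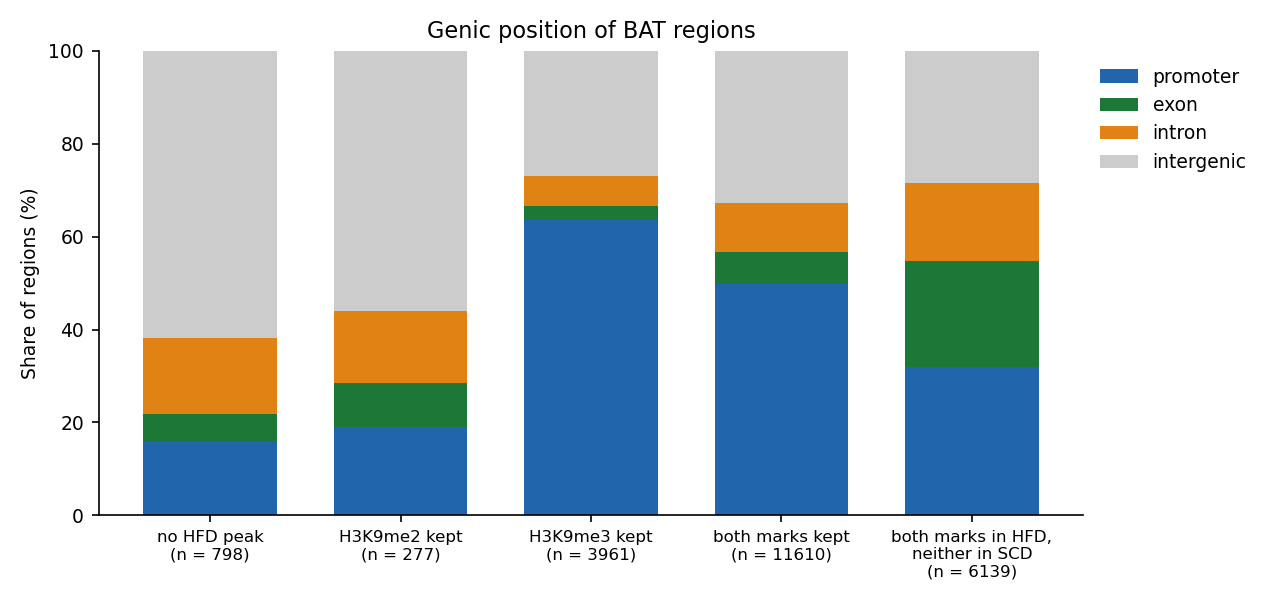
Share of BAT regions (percent) at a promoter, in an exon, in an intron or between genes, in stacked bars. The 798 members and the 277 regions that kept H3K9me2 alone have 15.9% and 19.1% at a promoter, while the 11610 regions that kept both marks have 49.9%.

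The difference between promoters and intergenic regions was also found among regions of like SCD score. In the weakest of the 5 score classes 5.27% of promoter regions (4.19 to 6.52) and 24.6% of intergenic regions (22.2 to 27.2) were members. In the next classes the shares were 1.58% and 11.9%, then 0.867% and 5.11%, then 0.275% and 1.74%. In the strongest class 0 of 1615 promoter regions and 2 of 1186 intergenic regions were members.

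**Figure D3:**
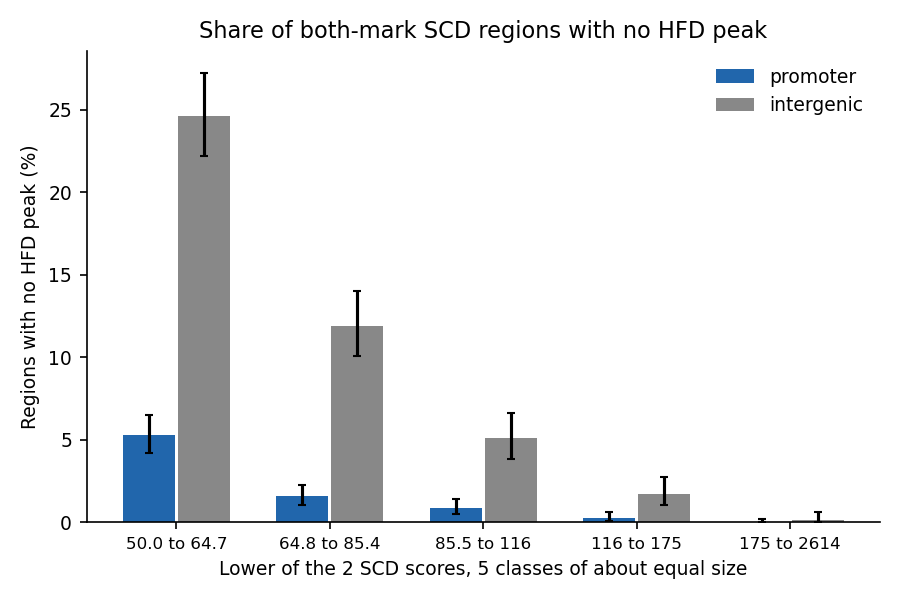
Share of both-mark SCD regions of BAT (percent) that had no HFD peak, in 5 classes of the lower SCD score, with blue bars for promoters, grey bars for intergenic regions and 95% exact binomial intervals. The grey bar is the taller in each class, from 24.6% against 5.27% in the weakest to 0.169% against 0 in the strongest, where the intervals overlap.

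No difference beyond counting error was detectable in how far intergenic members lay from genes. Their median distance from a start site of a protein-coding gene was 110 kb, against 97.5 kb, and 254 of 494 (51.4%, 46.9 to 55.9) were over 100 kb away, against 49.5% (48.1 to 50.9). Other annotated genes lay under 25 of them (5.06%, 3.30 to 7.38) and under 7.17% of kept intergenic regions.

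The bases under members were poorer in G, C and CpG. Median GC content was 54.4% (quartiles 52.3 and 56.6) in members and 60.1% (57.0 and 63.6) in kept regions, and the median ratio of observed to expected CpG was 0.418 against 0.598. A CpG ratio of 0.6 or more, as in CpG islands, was found in 17.9% of members (15.3 to 20.8) and 49.6% of kept regions. Of the 8115 regions with a GC content of 60% or more, 0.715% were members, whereas 18.7% of 2058 regions between 50% and 55% were. Under 45%, 17 of 32 regions were members, and 8 of the 17 were the neighbours upstream of Apba2 described below. The 277 regions that kept H3K9me2 alone had a like composition, with a median GC content of 54.7%, a CpG ratio of 0.425 and 15.2% (11.2 to 19.9) at a ratio of 0.6 or more. SCD regions with a single mark and no HFD peak had a median GC content of 53.6% for H3K9me2 and 53.3% for H3K9me3, with CpG ratios of 0.255 and 0.417. The composition was therefore not particular to the members. At promoters alone the median GC content was 58.2% in members and 63.0% in kept regions. Members were also narrower, with a median of 703 bp of SCD peak (range 365 to 1934) against 1161 bp. These properties go with the score and the position of a region, and their separate parts were not tested.

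Some short motifs differed in frequency. In the 300 bp around the middle of the peaks, on either strand, the CCAAT box (CCAAT) occurred in 34.3% of members (31.0 to 37.7) and 22.1% of kept regions, and the nuclear receptor core motif (AGGTCA) in 11.8% (9.62 to 14.2) and 7.73%. The cAMP response element (TGACGTCA) was found in 12 members (1.50%, 0.779 to 2.61) and 0.625% of kept regions. The GC box (GGGGCGGGG) was less frequent in members, at 3.76% (2.55 to 5.32) against 8.87%. The E-box (CACGTG) occurred in 6.52% (4.90 to 8.46) and 5.66%, a difference within the interval. Copies of the same sequence were counted separately, and composition, position and recurring sequence were not held equal in these shares. At promoters the interval of each motif in the 127 members held the share of kept promoters, so no motif differed there beyond counting error.

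Many members were copies of sequences found elsewhere in the genome. More than 50% of the 20-base words of the window occurred over 100 times in the reference in 37.6% of members (34.2 to 41.1) and 27.6% of kept regions (26.9 to 28.3). This went with position, and among intergenic regions alone the order turned, with 49.0% of members (44.5 to 53.5) and 66.4% of kept regions (65.1 to 67.7). Intergenic regions of single-copy sequence were members in 12.6% of cases (10.6 to 14.8), and those of sequence with over 100 copies in 6.75% (5.95 to 7.62). Since reads that mapped to several places were removed by the authors, peaks over recurring sequence rest on the reads that could be placed. Without the regions in which over 10 copies prevailed, 411 members remained, of which 29.7% were at a promoter and 42.6% between genes, against 76.1% and 11.9% of kept regions.

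Sequence sharing tied 331 members into 20 groups, while 467 members stood alone. Members were joined when at least 30% of the 20-base words of either occurred in the other. The largest group held 110 members on 18 chromosomes, among them the Slc24a3 and Rims1 regions, and 95 of the 110 were intergenic. Another 1404 regions that kept a mark shared sequence with this group, so that members made up 7.27% of it (6.01 to 8.69). The next group, which held the highest-ranked member near Iqcj, had 85 members and 2013 kept regions (4.05%, 3.25 to 4.99). The smaller groups differed more. A group of 28 members had 91 kept relatives (23.5%, 16.2 to 32.2), a group of 14 had 18 (43.8%, 26.4 to 62.3), and a group of 9 had 416 (2.12%, 0.973 to 3.98). Copies of a sequence were thus found on either side of the rule. The groups were built outward from members, so each holds at least 2 members and small groups tend to high shares. Differences in share between groups were therefore not tested, and the intervals do not allow for this.

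The 8 members nearest to Apba2, which encodes an adaptor protein of neurons, formed a group of their own within 17.5 kb of chromosome 7 (chr7:71612728-71630274), 16.3 to 32.1 kb upstream of the Apba2 start site. Their window of 1 Mb, with 19 both-mark SCD regions, held the most members. Of the 1-Mb windows of the autosomes that held a member, 536 held 1, 102 held 2, 14 held 3, 2 held 4 and 1, this place, held 8. The 8 regions had a GC content of 39.8% to 41.0% and a CpG ratio of 0 to 0.0618. Their H3K9me2 scores ran from 59.0 to 169 and their H3K9me3 scores from 93.5 to 276. No kept region lay among them, and 1 kept region elsewhere shared their sequence.

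In this stretch the WAT lists followed the same pattern by diet. The SCD lists of BAT held 9 H3K9me2 and 8 H3K9me3 peaks over 51.3% and 47.5% of the 17.5 kb, and the SCD lists of WAT held 10 and 8 peaks over 57.1% and 61.7%. All 4 HFD lists held 0 peaks there. The SCD WAT scores ran from 48.0 to 553 for H3K9me2 and from 36.0 to 599 for H3K9me3. The highest were well above the lowest score of either WAT diet, while the lowest were under 50, the lowest score of the HFD WAT lists. Peaks of the SCD lists went on to 27.9 kb from the first member, and over the whole block the SCD lists held 11 and 13 peaks in BAT and 19 and 17 in WAT. Of the WAT peaks, 15 and 12 had a score of at least 50. In the same block the HFD lists held 1 peak, of H3K9me3 in BAT with a score of 59.3, over chr7:71638380-71639419. The input libraries were not used here, and the number of copies of this repeat in the animals of each diet was not tested.

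**Figure D4:**
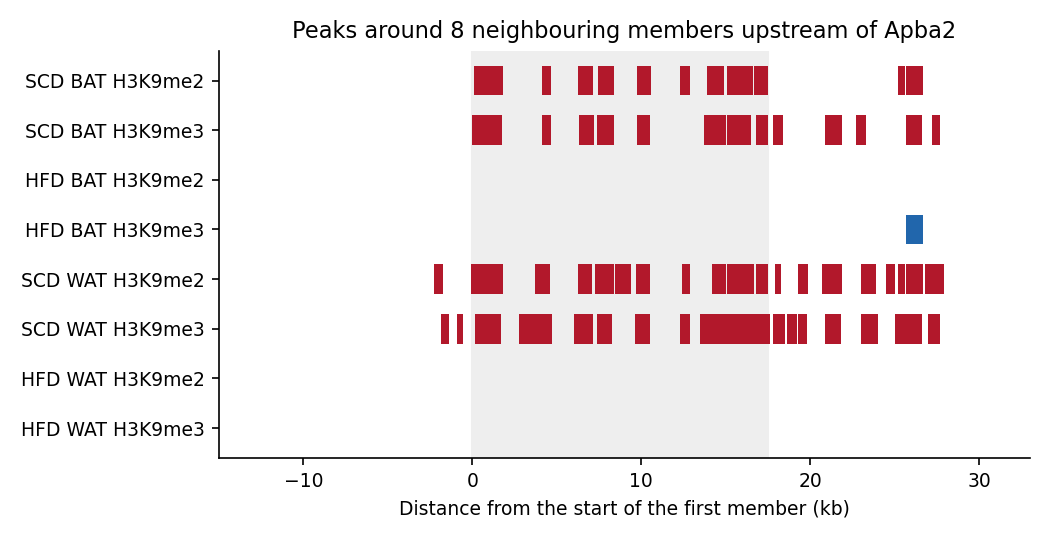
Peaks of the 8 lists around 8 neighbouring members upstream of Apba2, by distance in kb from the start of the first member, with a row for each list, red for SCD and blue for HFD, and the 17.5 kb of the members in grey. The 4 SCD rows are filled in BAT and WAT, and the 4 HFD rows are empty except for 1 H3K9me3 peak of BAT outside the grey area.

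On the other chromosomes members were spread thinly. The share of both-mark SCD regions that were members ran from 3.40% (1.87 to 5.64) on chromosome 19 to 6.25% (4.58 to 8.30) on chromosome 13, and these intervals overlap. Chromosome 1 held the most members, 60. The promoter share was highest on chromosome 19, with 5 of 14 members (35.7%), and lowest on chromosome 13, with 2 of 44 (4.55%). These counts are small and the promoter share of kept regions was not taken by chromosome, so the spread cannot be read as a trait of the members. The median gap between neighbouring members was 2042 kb, the median distance to the nearest kept region was 54.5 kb, and 88 members (11.0%) lay within 10 kb of a kept region. The same distances were not taken for kept regions, so these values do not show whether members were more isolated.

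The windows of 1 Mb with 4 members were on chromosomes 3 and 4, where they held 19 and 9 both-mark SCD regions. Some windows with 3 members had higher shares. They held 3 of 3 regions between 19 and 20 Mb of chromosome 9 and 3 of 4 between 22 and 23 Mb of chromosome 15. Between 46 and 47 Mb of chromosome 2 the count was 3 of 6. Over all both-mark SCD regions the share was 4.79%. Shares were looked at only in windows with 3 members or more, and these windows were picked for their high values. Windows with few regions tend to high shares under that choice, and clustering was not tested. On chromosome 3 the promoters of Lce1e, Lce3a, Lce1l and 2310001H18Rik were members, the Lce genes encoding late cornified envelope proteins of the skin. Their H3K9me2 scores were 160, 152, 52.1 and 124. Near 42 Mb of chromosome 4 lay 3 intergenic members of 70.0% to 71.8% GC that shared 96.1% to 100% of their 20-base words, each 13.5 kb from the nearest start site, together with the promoter of Ccl27b, a chemokine gene with near-identical copies in this area. The reads of such copies could be placed only where they differ.

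At the 127 promoter members there were 142 protein-coding genes, or 1.64% of the 8684 genes with a promoter at a both-mark SCD region. For 118 of them (1.36%) every both-mark SCD region at a promoter was a member, and for 24 another such region kept a mark. No HFD BAT peak of either mark lay in any promoter window of 88 of the genes (1.01%). There were 17 members shared by 2 genes, of which 14 had start sites on both strands.

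The strongest promoter member was at Lce1e (chr3:92511318-92512060), with scores of 160 for H3K9me2 and 195 for H3K9me3. Slc24a3, which encodes a potassium-dependent sodium and calcium exchanger, followed with 169 and 154 (chr2:145067775-145068593). Their CpG ratios were 0.0704 and 0.465. In WAT, Lce1e had an SCD H3K9me2 peak (103) and an HFD H3K9me3 peak (66.7). Slc24a3 had H3K9me2 peaks in SCD (57.4) and HFD (89.2) and an HFD H3K9me3 peak (75.4).

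The members at Kctd6, Rap1a and Adipor2 covered the start site in CpG-rich sequence. Kctd6 encodes an adaptor for cullin ubiquitin ligases, and its region (chr14:9046204-9047500) scored 142 and 179. Rap1a encodes a small GTPase of the Ras family that acts on MAPK signaling, and its region (chr3:105603508-105604516) scored 129 and 281. Adipor2 encodes a receptor for adiponectin, the hormone of adipocytes, and its region (chr6:119338043-119339108) scored 129 and 243. The nearest HFD BAT peak of any mark was 20007 bp from the Kctd6 region, 83681 bp from the Rap1a region and 40630 bp from the Adipor2 region. In WAT, Rap1a had an SCD H3K9me2 peak with a score of 44.8 and no HFD peak, but that score is under the lowest of the HFD WAT lists (50), so no difference by diet can be read there. Adipor2 had H3K9me2 peaks in SCD (40.7) and HFD (52.3).

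Other promoter members among the 12 highest were Fam189a2 (113 and 224), Bdnf (113 and 144), 2310001H18Rik (124 and 111), Phactr2 (109 and 301), Pcdhgc5 (109 and 111), Fancl (110 and 106) and the promoter shared by 2310022A10Rik and Pld3 (105 and 140), with the H3K9me2 score first. Bdnf encodes a neurotrophin, Phactr2 a regulator of actin and protein phosphatase 1, Pcdhgc5 a cell adhesion protein of neurons, Fancl a ubiquitin ligase of DNA repair, and Pld3 a lysosomal nuclease. These 7 regions covered a start site. Bdnf and Pld3 had HFD BAT peaks 2270 and 2975 bp away, and Pcdhgc5 849 bp away. Bdnf alone of them had both SCD marks and neither HFD mark in WAT, with scores of 77.6 and 30.8, of which the second is under the lowest score of the HFD WAT lists.

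Some further promoter members were picked after their values were seen. The highest H3K9me3 score of any member, 545, was at Epb4.1l4b (chr4:57156120-57156818), where the H3K9me2 score was 95.5 and an HFD H3K9me3 peak lay 158 bp away. Hoxa4, a homeobox gene of body patterning, had scores of 104 and 410, and its nearest HFD BAT peak was 11183 bp away. The Hoxa4 region had WAT peaks of H3K9me2 in SCD (111) and HFD (56.3) and of H3K9me3 in HFD (55.1).

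Outside promoters, the highest scores were those of the intergenic members near Iqcj (chr3:67556872-67557607, 201 and 203), near Rims1 (chr1:22928771-22929564, 182 and 180), near Apba2 (chr7:71627804-71629359, 169 and 276) and near Xkr4 (chr1:3027598-3028437, 187 and 156). Their distances from a start site were 139, 17.1, 17.2 and 177 kb. In gene bodies the leading members were in exons of Anks1b (138 and 189) and Rbfox1 (140 and 117) and in introns of Bmp2k (154 and 114) and Shisa9 (216 and 111). Anks1b, Rbfox1 and Shisa9 are genes of neurons, and Bmp2k encodes a kinase. The score of 216 in Shisa9 was the highest H3K9me2 score of any member. The widest members were an exon region of Speg (1934 bp, 91.1 and 55.9), a kinase gene of striated muscle, and the intergenic region chr2:181654462-181656387 (1926 bp, 136 and 222).

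Few genes of the lists on adipose tissue function had a promoter at a member. Of 17 gene lists, 14 had 0 genes with a promoter at a member. These included brown adipocyte and thermogenesis genes (0 of 17 with a both-mark SCD region), white adipocyte and adipogenesis genes (0 of 16), lipogenesis (0 of 14), lipolysis and fatty acid oxidation (0 of 12), insulin and mTOR signaling (0 of 30), Wnt signaling (0 of 44), Hippo signaling (0 of 20), oxidative phosphorylation and mitochondria (0 of 21), the circadian clock (0 of 12), inflammation (0 of 18) and the enzymes that write (0 of 8) or remove (0 of 6) H3K9 methylation. At the background share of 1.64%, fewer than 1 gene would be counted in each of these lists, so the zeros say little about the lists. The macrophage and endothelial marker lists had 0 of 2 each.

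MAPK signaling, the pathway that the study followed, had 2 of 76 genes (2.63%, beside 1.64% of all genes with a both-mark SCD promoter region). They were Rap1a and Sos2, an exchange factor that activates Ras. The Sos2 region (chr12:70782187-70783534) scored 69.1 and 237, covered the start site and had WAT peaks of H3K9me2 in SCD (109) and HFD (85.3). Neither gene had an HFD BAT peak in a promoter window. Skeletal muscle markers had 1 of 4, Ckm, the muscle creatine kinase (54.7 and 95.5), and housekeeping genes 1 of 6, Tbp, a general transcription factor that shares the region with Psmb1 (102 and 96.3).

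Genes that the study named were not at members. The study picked Map3k5, Ppp3cc, Hspa1a, Vegfa, Dusp2 and Met by H3K9me2 promoter peaks that differed between diets in WAT and by macrophage expression. Absence of both marks in BAT is another measure in another tissue, so it does not bear on that selection. Map3k5, Vegfa, Ppp3cc, Hspa1a and Dusp2 had both marks at a promoter in SCD and at least 1 in HFD. Map3k5, a kinase of the stress-activated MAPK cascade, had best promoter scores of 192 in SCD and 144 in HFD for H3K9me2, and of 651 and 724 for H3K9me3. Ppp3cc, a calcineurin subunit, had an H3K9me2 score of 88.2 in SCD and no H3K9me2 peak in HFD, and kept H3K9me3 (361 and 256). Map3k14, Met and Pparg had no SCD H3K9me2 peak in a promoter window, so the rule could not take them.

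WAT peaks were fewer at members than at kept regions in all 4 lists. An SCD H3K9me2 peak of WAT was present at 28.7% of members (25.6 to 32.0) and 86.6% of kept regions, and an HFD H3K9me2 peak at 14.2% (11.8 to 16.8) and 69.9%. For H3K9me3 the shares were 14.4% (12.0 to 17.0) and 29.3% in SCD, and 29.3% (26.2 to 32.6) and 68.6% in HFD. No WAT peak at all was found at 343 members (43.0%, 39.5 to 46.5) and 4.04% of kept regions. These lists were not used to choose the members. With the SCD WAT lists at a score of at least 50, the lowest score of the HFD lists, the SCD shares of members fell to 13.3% for H3K9me2 and 4.64% for H3K9me3, against 73.9% and 15.4% of kept regions. With the HFD lists of BAT cut to the length of the SCD lists the members had 43.2% with SCD H3K9me2, 24.9% with HFD H3K9me2 and 43.2% with HFD H3K9me3. Kept regions then had 90.7%, 74.3% and 70.6%. With a score of at least 80 in BAT the members had 46.1%, 28.8% and 51.2%, against 92.8%, 80.7% and 75.7% of kept regions.

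Low WAT shares were not particular to the members. An HFD H3K9me2 peak of WAT was present at 14.8% (10.8 to 19.5) of the 277 regions that kept H3K9me2 alone in BAT. An SCD H3K9me3 peak was present at 14.3% (13.2 to 15.4) of the 3961 that kept H3K9me3 alone. These shares were close to those of the members, but in the other WAT lists both sets had higher shares than the members. With SCD H3K9me2 they had 51.3% and 76.2%, against 28.7% of members, and with HFD H3K9me3 48.7% and 50.4%, against 29.3%. Of the 2845 SCD regions with H3K9me2 alone and no HFD peak, 11.6% had an SCD H3K9me2 peak of WAT and 1.09% an HFD H3K9me2 peak.

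**Figure D5:**
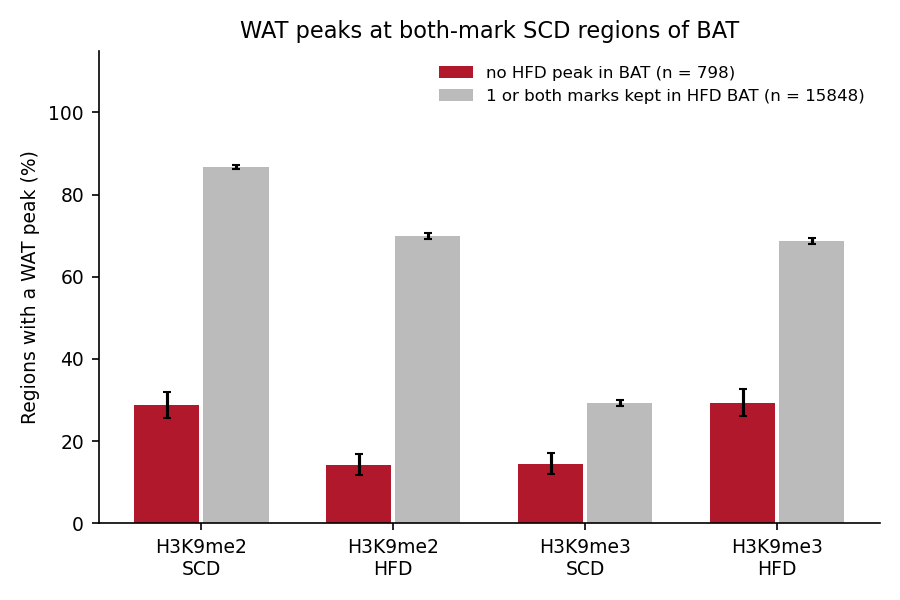
Share of both-mark SCD regions of BAT (percent) with a peak of each WAT list, in red for the 798 members and in grey for the 15848 regions that kept 1 or both marks, with 95% exact binomial intervals. The red bar is the lower in each list, from 14.2% against 69.9% to 14.4% against 29.3%.

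Within the 4 SCD score classes that hold 25 members or more the same order was seen for all 4 WAT lists, although the H3K9me3 intervals in SCD were wide. In the weakest class the SCD H3K9me2 list of WAT covered 26.1% of members (22.2 to 30.3) and 73.0% of kept regions (71.3 to 74.6), and in the fourth class 56.0% (34.9 to 75.6) and 92.0%. For SCD H3K9me3 the shares were 13.2% and 21.9% in the weakest class, and 20% (6.83 to 40.7) and 27.9% in the fourth, where, as in the third (21.3%, 13.4 to 31.3, and 24.5%), the interval of the members held the share of kept regions. By position, 41.7% of promoter members (33.0 to 50.8) and 22.5% of intergenic members (18.9 to 26.4) had an SCD H3K9me2 peak of WAT, against 92.5% and 77.9% of kept regions. No WAT peak was found at 41.7% of promoter members (33.0 to 50.8) and 44.7% of intergenic members (40.3 to 49.2).

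The diet difference of BAT was rarely found at the same place in WAT. Both SCD marks and neither HFD mark were present in WAT at 44 members (5.51%, 4.03 to 7.33), beside 2.64% of kept regions, and 8 of the 44 were the neighbours upstream of Apba2. A WAT peak in SCD alone was found at 165 members (20.7%, 17.9 to 23.7) and 11.0% of kept regions, and in HFD alone at 184 members (23.1%, 20.2 to 26.1) and 8.40% of kept regions. By mark, H3K9me2 was in SCD alone at 23.7% of members and 22.1% of kept regions and in HFD alone at 9.15% and 5.42%, while H3K9me3 was in SCD alone at 10.0% and 5.60% and in HFD alone at 24.9% and 44.9%. In the lists as deposited, members and kept regions thus had the same directions for each mark. The lowest score is 30 in the SCD lists of WAT and 50 in the HFD lists. At a WAT score of at least 50, SCD alone had a peak at 65 members (8.15%, 6.34 to 10.3) and 7.48% of kept regions. The share of kept regions thus lay within the interval of the members. HFD alone had a peak at 238 members (29.8%, 26.7 to 33.1) and 17.7% of kept regions. By mark, H3K9me2 was in SCD alone at 85 members (10.7%, 8.60 to 13.0) and in HFD alone at 92 (11.5%, 9.40 to 14.0). These intervals overlap, with no excess in SCD, whereas kept regions had 16.0% in SCD alone and 12.0% in HFD alone. H3K9me3 was in SCD alone at 24 members (3.01%) and in HFD alone at 221 (27.7%), against 2.03% and 55.2% of kept regions. At that score, both SCD marks and neither HFD mark were present in WAT at 14 members (1.75%, 0.962 to 2.93) and 0.915% of kept regions (0.773 to 1.08), and 8 of the 14 were the neighbours upstream of Apba2.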

How the data were processed

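H3K9me2 and H3K9me3 ChIP-seq of BAT and WAT was used in 8 of 12 libraries, those with a peak list. According to the study's methods and the submitters' processing notes, read quality was assessed by the authors with FastQC. Adaptors were cut by Trim Galore, reads were placed on mm9 by Bowtie2 2.4.2, multiply mapped reads were discarded, and MACS2 called the peaks. Each list holds the position and name of a peak and a score deposited by the authors without a stated unit, taken here as −log10 of the p-value multiplied by 10 and not scaled between libraries. Read depth is not given, so no depth correction was possible.

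Peaks were merged and members selected with scripts in Python 3.11.15 (numpy 2.4.6, scipy 1.17.1, pysam 0.24.0, numba 0.67.0), tested on simulated peaks and checked against bedtools 2.31.1. Position, WAT overlap (at least 1 bp), GC content and CpG ratio (observed over expected) were taken over the bases under SCD peaks, so that HFD peaks could not widen kept regions. Start sites came from GENCODE vM1 and sequences from the NCBIM37 (mm9) reference. A promoter was 3 kb on either side of any of the 70064 annotated start sites of protein-coding genes, so a gene can have several. Shares carry exact binomial 95% intervals, and no test was made, since each group has 1 library. Named were the 12 highest promoter members by the lower SCD score, the 4 highest in gene bodies and between genes, the widest 2, genes of the 17 lists and genes named by the study. The members, gene lists and rules were chosen with earlier results of these data known. Motif letters and sequence groups were read as descriptions.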

Additional observations from a re-analysis of the deposited data

How the results depend on the processing

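No paired analysis was possible because each diet, tissue and mark has 1 library, and for the same reason no library was left out. Members had a lower promoter share, a higher intergenic share and fewer peaks of each WAT list than kept regions under each of the 10 alternatives run for these shares.

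The values themselves moved. With a score of at least 80 in all 4 BAT lists there were 490 members and 83 genes, and the WAT shares were 46.1% and 28.8% for H3K9me2 in SCD and HFD and 17.6% and 51.2% for H3K9me3. With the upper 50% of each SCD list there were 48 members and 13 genes, 25.0% were at a promoter and 68.8% between genes, and the WAT shares were 45.8%, 31.2%, 25.0% and 39.6% in the same order. With HFD lists cut to the length of the SCD lists there were 2399 members and 621 genes, 23.1% and 56.5% lay at promoters and between genes, and the WAT shares were 43.2% and 24.9% for H3K9me2 and 43.2% for H3K9me3 in HFD. The promoter share was 12.7% with promoters of 1 kb on either side and 12.9% with 1 start site per gene. With SCD WAT peaks of a score of at least 50, the SCD shares were 13.3% for H3K9me2 and 4.64% for H3K9me3, and with a WAT overlap of at least 50% of the region the HFD H3K9me2 share was 11.3%.

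Leaving out regions of recurring sequence, which was added after seeing the data, gave 411 members, 29.7% at promoters, 42.6% between genes and WAT shares of 40.6%, 8.27%, 18.2% and 20.9% in the order above. Leaving out the 8 neighbours near Apba2, also added then, moved nothing beyond the counting interval. Merging peaks up to 1 kb apart gave 689 members, a 50% overlap of the marks 796, all chromosomes and unplaced contigs 999, and an HFD peak within 1 kb counted as present 685. The causes of these shifts were not tested. Read depth is unknown, so a peak missing from a list cannot be told apart from a peak under its threshold.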
